A study of Mus musculus with 12 samples.

Results

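Without doxycycline, embryoid bodies of the 2 FLAG-*Lhx1* cell lines already differed at a large share of their genes. The comparison used the 6 untreated libraries of the 12 in the series, 3 of the wild-type line and 3 of the mutant line, and asked in what state the lines were before *Lhx1* was induced. LHX1 is a LIM homeodomain transcription factor needed for head formation in the mouse embryo, and RNA was sequenced from embryoid bodies, the aggregates in which embryonic stem cells leave the stem cell state. Both lines were made from mouse A2lox.cre embryonic stem cells, in which a transgene is exchanged into the *Hprt* locus on the X chromosome and is expressed when doxycycline is added. The wild-type line carried FLAG-tagged *Lhx1* and the mutant line a mutant form of it, and no label says what was altered. All embryoid bodies had differentiated for 2 days, and the untreated ones were collected as controls at the 16 h time point. The other 6 libraries came from the same lines after 16 h of doxycycline and are used here as a further look at each line.

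Each genotype was represented by 1 line, so the form of the transgene cannot be told apart from any other difference between the lines. The labels do not say whether the 3 libraries of a group came from separate cultures, so the p-values reflect the spread among these libraries and no more, and that spread may be technical. Levels are given as CPM, the count of a gene relative to the scaled size of its library, in the order of replicates 1, 2 and 3. Differences are log2 fold changes of the mutant line over the wild-type line with a standard error (SE) from edgeR's quasi-likelihood test, and a gene was called when its adjusted p was under 0.05.

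Mouse embryonic stem cells in the naive state resemble the epiblast before implantation. As embryoid bodies form, they shut down naive transcription factors, pass through a formative state that resembles the early post-implantation epiblast, and gain DNA methylation through DNMT3A, DNMT3B and their partner DNMT3L. Genes kept silent by that methylation, among them germline genes and the silent alleles of imprinted genes, report on the process. Actin-based contractile genes are controlled largely by SRF with its cofactors of the MRTF family and, on matrix or under tension, by YAP with TEAD factors.

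The 6 untreated libraries held 4289984 to 4850393 counts. The first principal component of these libraries carried 68.7% of the variance and separated the lines, and the next carried 10.2% and set wild-type replicate 3 (at 22.1) apart from wild-type replicates 1 and 2 (at -11.9 and -9.41). *Lhx1* itself, on chromosome 11, had 14, 8 and 5 counts in the untreated wild-type libraries and 2, 2 and 2 in the untreated mutant libraries (log2 fold change -2.22 ± 0.49, adjusted p = 2.68e-04), and it stood at 296 ± 9.37 and 248 ± 12.6 CPM (SD, n = 3) after doxycycline, so the induced gene followed its labels. *Hprt*, the locus that holds the transgene, had 10.2, 10.9 and 10.3 CPM in the wild-type and 6.87, 7.33 and 8.13 in the mutant line (log2 fold change -0.49 ± 0.18, adjusted p = 0.0236), a call that was lost in 4 of 17 alternative settings (in DESeq2 and without wild-type replicate 2, mutant replicate 1 or mutant replicate 2, with adjusted p of 0.0645, 0.0668, 0.0804 and 0.0586). The 8 tested Y-linked genes summed to 1973 to 2101 counts in the wild-type and 10 to 33 counts in the mutant libraries. That difference is kept out of the counts below, which are for autosomal genes.

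Of 11809 autosomal genes tested, 5352 (45.3%) were called between the untreated lines. The mutant line was higher at 2673 (22.6%) and lower at 2679 (22.7%), and the median log2 fold change of all autosomal genes was 0.00. Most differences were small, with a median absolute log2 fold change of 0.46 (1.38-fold) among called genes. At least 2-fold differences numbered 431 higher (3.65%) and 321 lower (2.72%). At least 4-fold they numbered 33 higher and 51 lower, and at least 8-fold 6 higher and 10 lower. The libraries of the lines did not overlap at 5022 of the called genes (93.8%), against 51.6% of all autosomal genes tested.

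**Figure D1:**
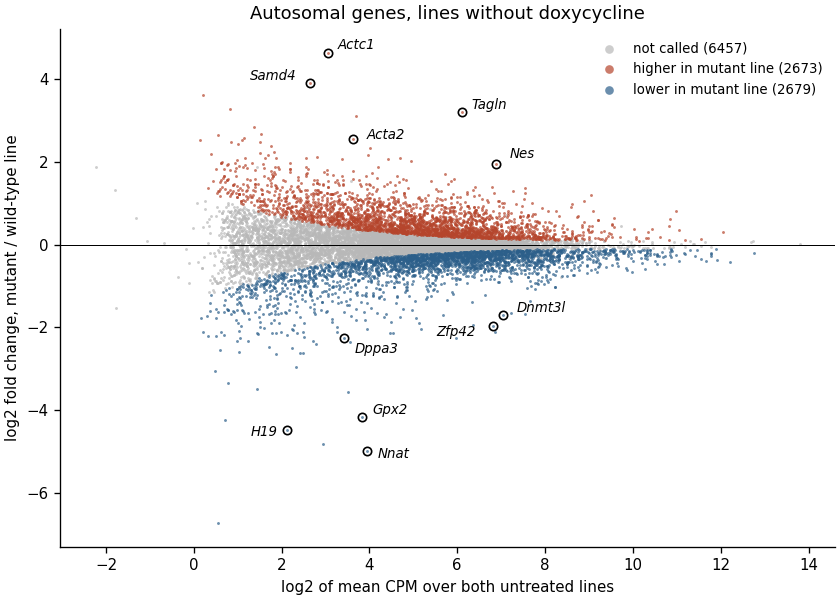
Log2 fold change of the untreated mutant over the untreated wild-type line (vertical axis) against the log2 of the mean CPM of both lines (horizontal axis), 1 point for each of 11809 autosomal genes, with called genes in red (2673 higher in the mutant line) and blue (2679 lower). The circled genes include *Actc1* at 4.64, *Tagln* at 3.20, *Nnat* at -5.00 and *Gpx2* at -4.18.

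The doxycycline libraries of the same lines share no library with the untreated ones, though they also differ by the form of *Lhx1* induced. There, 5226 autosomal genes (44.3%) were called between the lines, 2556 higher (21.6%) and 2670 lower (22.6%) in the mutant line. Of the 5352 genes called without doxycycline, 3801 (71.0%) were called in the same direction with it and 47 in the opposite direction. Wild-type doxycycline replicate 2 stood apart from its group (chi-square over its degrees of freedom of 5.84 and 6.28 against replicates 1 and 3, and 1.44 between those), and without it 3629 calls were shared in direction. The values with doxycycline below include it. Of the 752 that differed at least 2-fold, 610 (81.1%) were called in the same direction and 3 in the opposite one. The test of the difference itself, the line effect with doxycycline minus the line effect without it, called 287 autosomal genes (2.43%).

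Chromosomes 8, 11 and 14 departed from the rest, and the chromosome is given below for the named genes that lie on them. On chromosome 8 the median log2 fold change was -0.39 (a ratio of 0.765), with 394 of 665 tested genes lower and 28 higher in the mutant line. On chromosome 11 it was -0.19 (a ratio of 0.878), with 414 of 990 lower and 112 higher. On chromosome 14 it was 0.49 (a ratio of 1.40), with 253 of 441 higher and 37 lower. The medians of the other 16 autosomes lay between -0.04 and 0.07. With doxycycline the medians of chromosomes 8, 11 and 14 were -0.37, -0.18 and 0.44. DNA copy number was not measured, and its part in these differences was not tested.

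**Figure D2:**
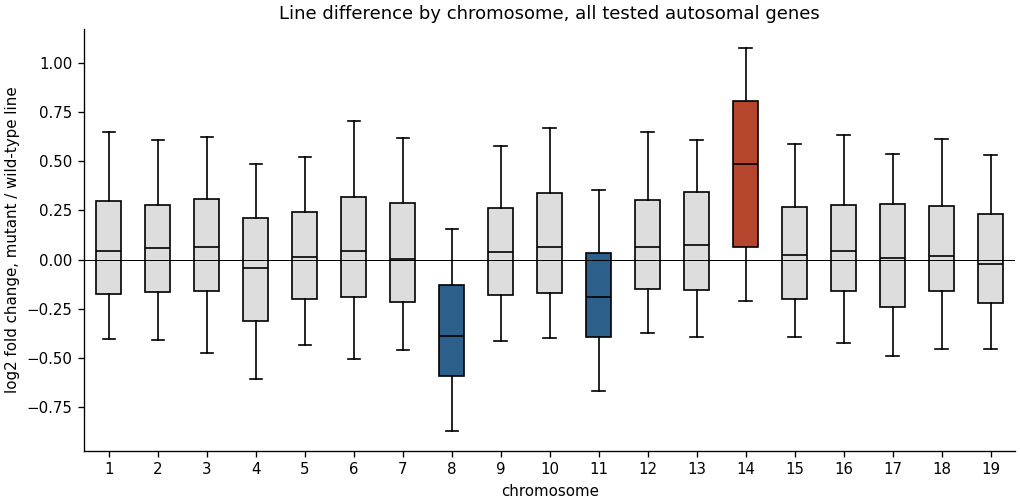
Log2 fold change of the untreated mutant over the untreated wild-type line for all tested genes of each autosome. Boxes give the quartiles with the median, and whiskers the 10th and 90th percentiles. Chromosomes 8 and 11 (blue) lie below 0 with medians of -0.39 and -0.19, and chromosome 14 (red) lies above it with a median of 0.49.

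Along the chromosomes the shifts took different shapes. In bins of about 40 neighbouring tested genes, all 16 bins of chromosome 8 had medians between -0.50 and -0.28, and all 24 of chromosome 11 lay between -0.33 and -0.07. Chromosome 14 was uneven. The bins from mm10 position 19872559 to 32348151 had medians of -0.01 and 0.00, while the 6 bins from 47540893 to 101696125 had medians between 0.53 and 0.81. The last bin, from 101729957 to 124677127, was at 0.17. On the other 16 autosomes 9 of 235 bins exceeded 0.2 and 3 fell under -0.2. Those 3 lay next to each other on chromosome 4, from 84275095 to 116686022, with medians of -0.36, -0.28 and -0.33. The highest of the 235, at 0.58, was on chromosome 13 from 20090596 to 23752886. It stood alone, with the bins on either side at 0.05 and 0.01.

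**Figure D3:**
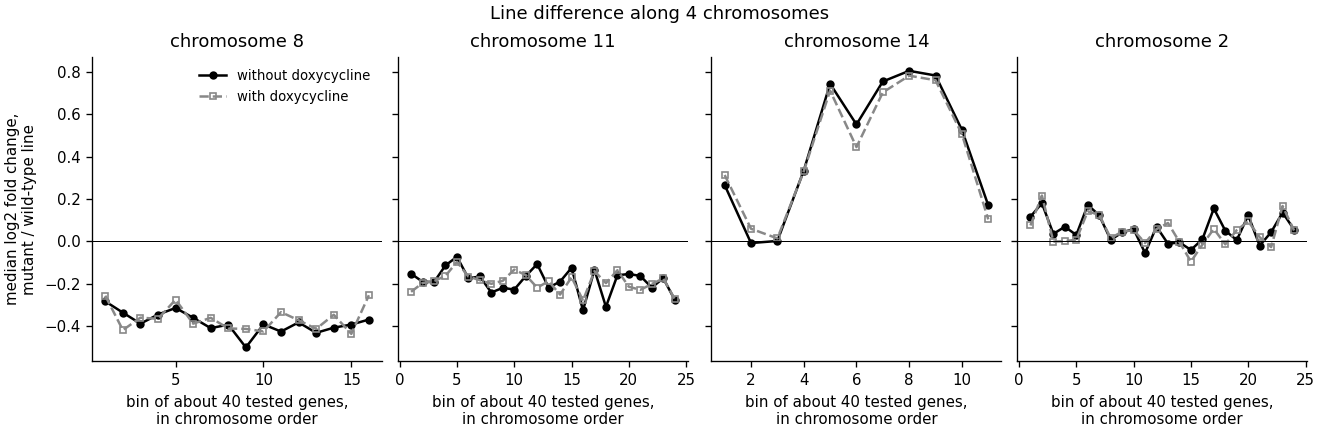
Median log2 fold change of the mutant over the wild-type line in bins of about 40 tested genes, in order along chromosomes 8, 11, 14 and, for comparison, 2, without doxycycline (filled circles) and with it (open squares). Chromosome 8 is low in all 16 bins, and chromosome 14 reaches 0.81 in its upper bins with bins 2 and 3 near 0.

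Outside chromosomes 8, 11 and 14, 2280 of 9713 autosomal genes (23.5%) were higher and 1834 (18.9%) lower in the mutant line, with a median of 0.03. When the genes of these chromosomes were left out of the scaling and the fit as well, a setting chosen after the data were seen, the counts were 2020 higher and 2064 lower. Of the gene lists below, those given with a count outside these chromosomes can be read against these shares, and the others against 22.6% higher and 22.7% lower. Counts near these shares are a description of the members and say nothing particular of a list. Of 32 list counts of 2 or fewer in a direction, 18 moved by more than 1.5 times when 1 library was left out. Since RNA came from whole embryoid bodies, fewer cells of a type and less RNA per cell cannot be told apart in any of these results.

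**Figure D4:**
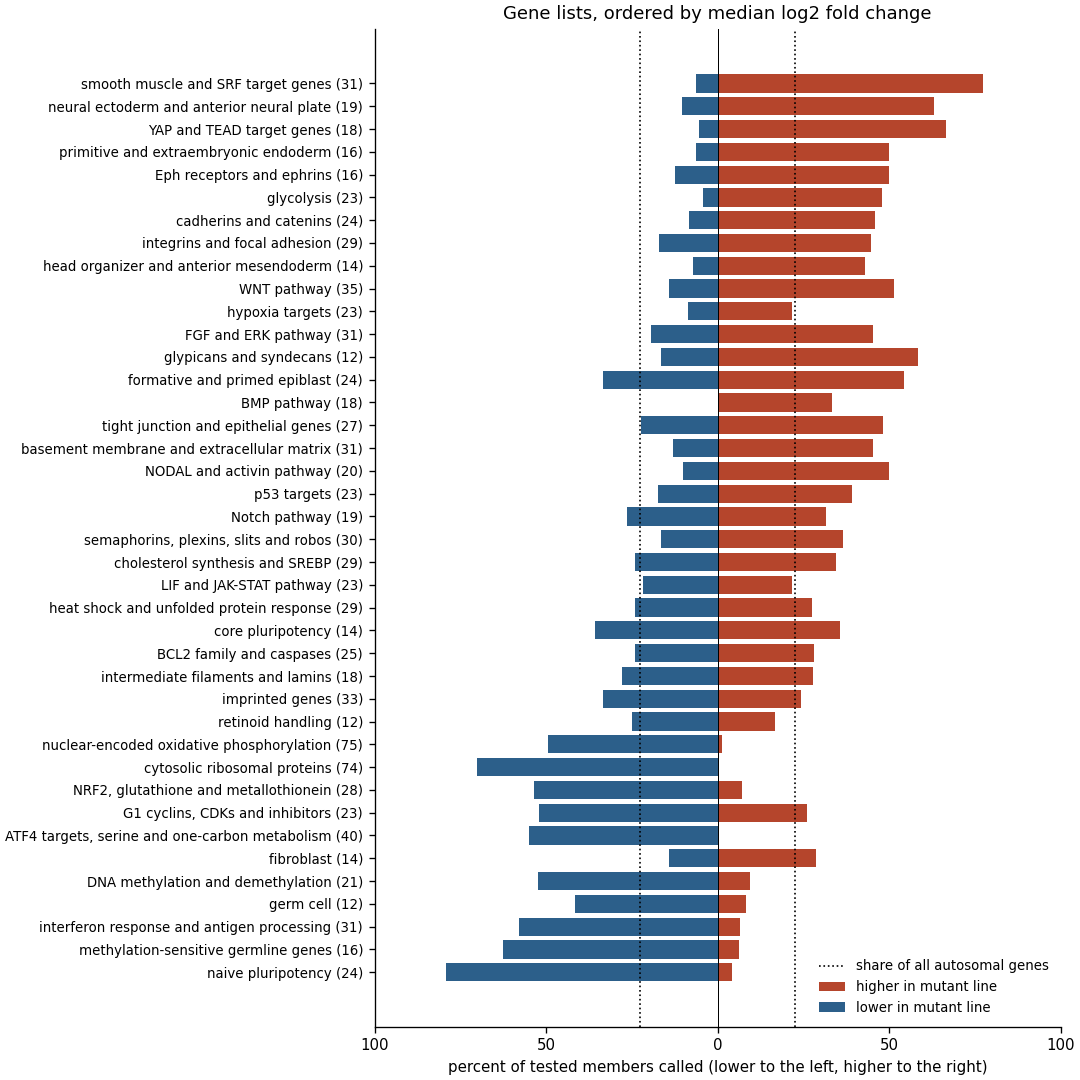
Percent of the tested autosomal members of each gene list with at least 12 tested members called higher (red, to the right) or lower (blue, to the left) in the untreated mutant line, with lists in order of their median log2 fold change and the number of tested members in brackets. Dotted lines mark the shares of all autosomal genes, 22.6% higher and 22.7% lower. Smooth muscle and SRF target genes head the order, with 24 of 31 higher, and naive pluripotency genes close it, with 19 of 24 lower.

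Naive pluripotency genes were lower in the mutant line. Of 24 autosomal members tested, 19 were called lower and 1 higher, with a median of -0.70, and outside the 3 shifted chromosomes 15 of 19 were lower and 1 higher. With doxycycline 20 were lower and 1 higher. *Zfp42* (chromosome 8, 43295063 to 43306980, - strand in mm10), the zinc finger gene also known as Rex1 that is a standard marker of naive cells, had 187, 184 and 167 CPM in the wild-type and 42.1, 48.8 and 47.3 in the mutant libraries. The lowest wild-type library was above all mutant libraries (log2 fold change -1.96 ± 0.07, adjusted p = 3.26e-31), a difference beyond the -0.39 median of its chromosome 8. *Dppa3* (Stella), a maternal factor that protects DNA from methylation, had 16.2, 18.99 and 18.2 against 2.58, 4.48 and 4.06 CPM (log2 fold change -2.25 ± 0.20, adjusted p = 3.57e-14). *Nr5a2*, a nuclear receptor that can activate *Pou5f1*, had 24.7, 19.7 and 14.1 against 4.72, 8.55 and 6.203 CPM (log2 fold change -1.57 ± 0.21, adjusted p = 1.17e-07). In these genes as in *Zfp42* the groups did not overlap. *Klf2*, a Krüppel-like factor that sustains naive self-renewal and lies on chromosome 8, had 62.6, 59.5 and 55.1 against 23.4, 26.3 and 25.5 CPM (log2 fold change -1.23 ± 0.09, adjusted p = 1.58e-16). *Klf4*, its relative on chromosome 4, was scarce at 3.81, 5.200 and 4.93 against 1.07, 2.65 and 1.28 CPM (log2 fold change -1.45 ± 0.35, adjusted p = 5.92e-04), with no overlap.

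Other members of the naive network differed less. *Esrrb*, an orphan nuclear receptor, and *Tfcp2l1*, a transcription factor downstream of LIF, differed by -0.53 ± 0.08 and -0.63 ± 0.11. *Dppa2* and *Dppa4*, which act as a pair in chromatin priming, differed by -0.56 ± 0.08 and -0.62 ± 0.06, and *Dppa5a*, an RNA-binding protein gene, by -0.61 ± 0.04. *Fgf4*, the autocrine FGF ligand of stem cells, had 165, 159.6 and 155 against 82.01, 78.8 and 93.9 CPM (log2 fold change -0.92 ± 0.06, adjusted p = 4.21e-18). *Pecam1*, a surface adhesion molecule that marks naive cells and endothelium, differed by -1.11 ± 0.12 on chromosome 11. The exceptions were *Nanog*, which had 80.4, 73.03 and 57.8 CPM in the wild-type and 68.9, 73.5 and 69.1 in the mutant libraries, with overlapping groups and no call (log2 fold change 0.01 ± 0.09, adjusted p = 0.968), and *Gbx2*. *Gbx2*, a homeobox gene downstream of STAT3, was the member called higher, at 3.33, 4.296 and 1.57 against 4.51, 5.699 and 5.77 CPM (log2 fold change 0.80 ± 0.29, adjusted p = 0.0227), but the call was lost without wild-type replicate 3, mutant replicate 2 or mutant replicate 3 (adjusted p = 0.208, 0.0681 and 0.0661) and in DESeq2.

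The general pluripotency network stayed at high levels in both lines. Among 14 core members tested, 5 were higher and 5 lower with a median of 0.03 (-0.03 without wild-type replicate 3). *Pou5f1*, which encodes OCT4, had 1225, 1173 and 1183 CPM in the wild-type and 1304, 1292 and 1381 in the mutant libraries, a difference of 0.15 ± 0.04. *Sox2*, its DNA-binding partner, had 301, 302 and 283 against 270.3, 258 and 264 CPM (-0.16 ± 0.05). These groups did not overlap, but the differences were of 1.11-fold and 1.12-fold. *Sall1*, a zinc finger gene on chromosome 8, was lower (-0.93 ± 0.05), as was *L1td1*, an RNA-binding protein gene (-0.49 ± 0.04). *L1td1* lies on chromosome 4, which holds the low stretch given above. *Lin28a*, which blocks maturation of let-7 microRNAs, was higher (0.58 ± 0.04). *Tdgf1*, the NODAL co-receptor Cripto, was higher (0.56 ± 0.14, adjusted p = 0.0115, or 0.0736 with the 6 untreated libraries alone), and *Utf1*, a chromatin gene of stem cells, was not called (-0.04 ± 0.05, adjusted p = 0.515).

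Formative and primed epiblast genes were called in both directions. Of 24 tested, 13 were higher and 8 lower in the mutant line, with a median of 0.25. *Fgf5*, the classic marker of the post-implantation epiblast, had 87.8, 90.4 and 80.9 CPM in the wild-type and 170.5, 167 and 181 in the mutant libraries (log2 fold change 1.00 ± 0.06, adjusted p = 1.80e-20). All mutant libraries lay above all wild-type ones. *Sall2*, a zinc finger gene on chromosome 14, had 102, 110.3 and 102 against 261, 276 and 270.1 CPM (log2 fold change 1.36 ± 0.05, adjusted p = 2.45e-28). *Cldn6*, a claudin of early epithelia, had 110.1, 109 and 109 against 219, 219 and 213 CPM (log2 fold change 0.99 ± 0.05, adjusted p = 5.08e-22). *Otx2*, the homeobox gene that drives exit from the naive state, was higher by 0.59 ± 0.06. It lies on chromosome 14, where the bin medians ranged from -0.01 to 0.81, and its difference was within that range. *Cdh2*, N-cadherin, was higher by 0.74 ± 0.11. On the lower side stood *Etv4*, an ETS factor downstream of FGF on chromosome 11 (-1.09 ± 0.09), *Tcf15*, a bHLH factor of primed cells (-0.96 ± 0.12), and *Grhl3*, a grainyhead factor of surface epithelium (-1.01 ± 0.23). With doxycycline the line difference at *Fgf5* was not called, at 0.09 (adjusted p = 0.214), and the difference between these effects was -0.91 ± 0.08 (adjusted p = 2.77e-12).

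**Figure D5:**
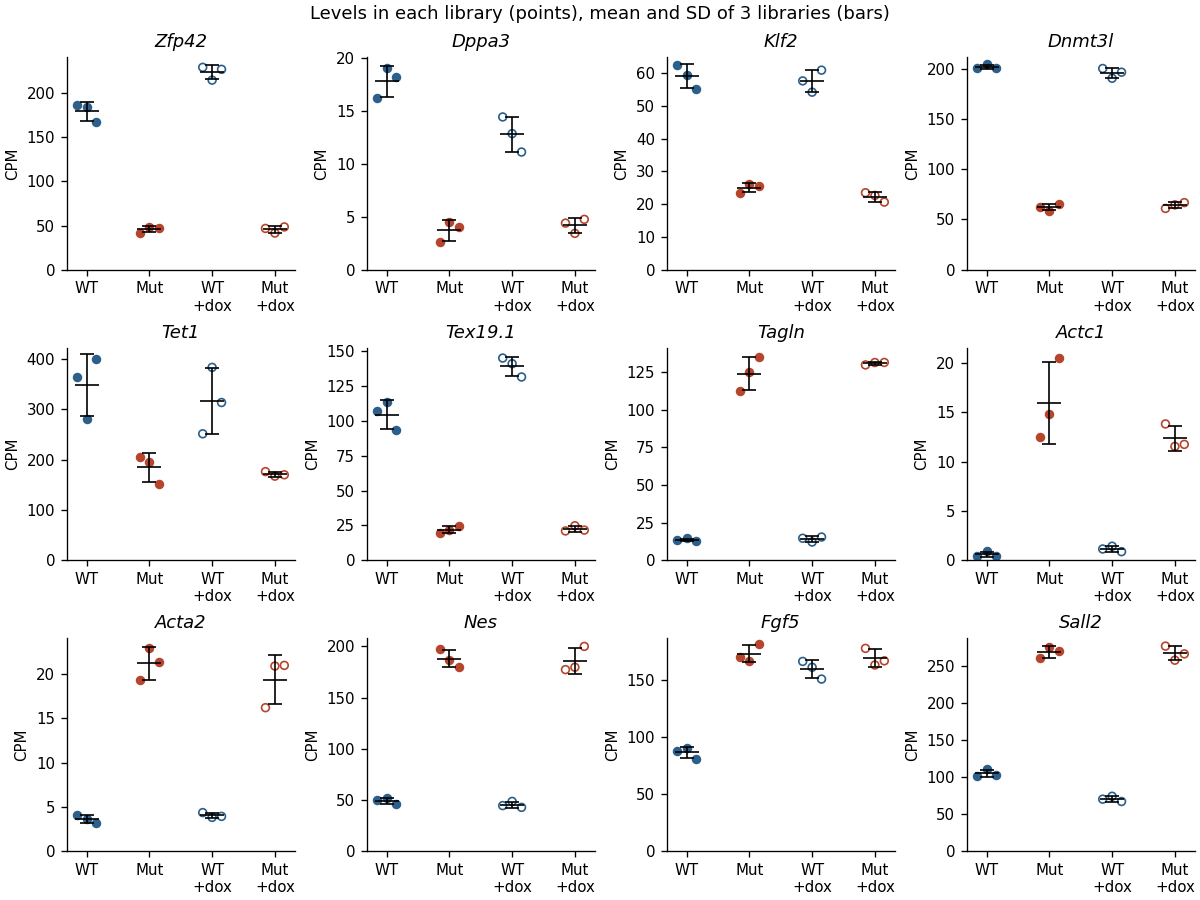
CPM of 12 genes in each of the 12 libraries (points, untreated filled and doxycycline open) with the mean and SD of 3 libraries (bars), for the wild-type (WT, blue) and mutant (Mut, red) lines. *Zfp42*, *Dppa3*, *Klf2*, *Dnmt3l*, *Tet1* and *Tex19.1* are lower in both mutant groups and *Tagln*, *Actc1*, *Acta2*, *Nes* and *Sall2* higher, while *Fgf5* differs between the lines only without doxycycline (1.00 against 0.09, with a difference of -0.91 that passed its own test).

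Enzymes and regulators of DNA methylation were mostly lower in the mutant line, at 11 of 21 tested, with 2 higher and a median of -0.28. None of them lay on chromosome 8, 11 or 14. *Dnmt3l* (chromosome 10, 78041947 to 78063622, + strand in mm10), which binds and stimulates the de novo methyltransferases but has no catalytic activity, had 201, 205 and 201 CPM in the wild-type and 62.7, 58.8 and 65.02 in the mutant libraries. The groups lay far apart (log2 fold change -1.70 ± 0.06, adjusted p = 5.32e-31). Its partners did not differ detectably. *Dnmt3a* had 430.3, 407 and 422 against 411, 409 and 431 CPM (log2 fold change -0.01 ± 0.04, adjusted p = 0.876), and *Dnmt3b* had 2779, 2765 and 2541 against 2678, 2716 and 2725 CPM (log2 fold change 0.01 ± 0.04, adjusted p = 0.916), with overlapping groups in both.

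Genes of methylation maintenance were lower by less. *Dnmt1*, which copies methylation after replication, differed by -0.36 ± 0.05, and *Uhrf1*, which recruits it, by -0.42 ± 0.04. The demethylating dioxygenases TET1 and TET2 oxidise methylcytosine. *Tet1* had 364, 281 and 399.9 CPM in the wild-type and 206, 196 and 152 in the mutant libraries, and the lowest wild-type library lay above the highest mutant one (log2 fold change -0.91 ± 0.19, adjusted p = 0.00426). *Tet2* had 16.2, 15.6 and 23.1 against 13.3, 9.77 and 8.56 CPM (log2 fold change -0.80 ± 0.17, adjusted p = 1.77e-04). *Zfp57*, a zinc finger protein that guards methylation at imprinting control regions, had 50.7, 61.7 and 45.95 against 30.9, 27.3 and 26.7 CPM (log2 fold change -0.90 ± 0.10, adjusted p = 1.89e-10).

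Germline genes that are held silent by promoter methylation were also lower. Of 16 autosomal members tested, 10 were lower and 1 higher, with a median of -0.69, and outside the 3 shifted chromosomes 8 of 14 were lower and 1 higher. *Tex19.1*, a genome defence gene of germ cells and placenta on chromosome 11, had 107, 114 and 93.2 CPM in the wild-type and 19.5, 21.4 and 24.8 in the mutant libraries (log2 fold change -2.25 ± 0.09, adjusted p = 5.28e-28). *Tuba3a*, a testis tubulin, had 23.3, 27.8 and 23.3 against 4.51, 6.31 and 7.06 CPM (log2 fold change -2.05 ± 0.16, adjusted p = 6.36e-16); it has a close copy, *Tuba3b*, with which it may share reads. *Fkbp6* and *Hormad1*, both of meiotic chromosome pairing, differed by -1.62 ± 0.24 and -1.54 ± 0.30. *Sycp3*, an axial element protein of meiotic chromosomes, went the other way, at 24.7, 22.2 and 26.9 against 77.9, 82.8 and 81.7 CPM (log2 fold change 1.72 ± 0.09, adjusted p = 1.89e-22). *Mael*, of the piRNA pathway, was not called (-0.18 ± 0.16, adjusted p = 0.369). Markers of primordial germ cells were lower at 5 of 12 and higher at 1 (median -0.37), with *Dnd1*, an RNA-binding protein of germ cells, at -1.14 ± 0.18.

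Imprinted genes, which are expressed from the maternal or the paternal allele, were called in both directions, as were all autosomal genes (22.6% higher and 22.7% lower). Of 33 tested, 8 were higher and 11 lower in the mutant line, with a median of -0.13 (0.04 without wild-type replicate 3). *Nnat* (chromosome 2, 157560078 to 157562522, + strand in mm10), a paternally expressed membrane protein gene, had 29.7, 28.5 and 32.1 CPM in the wild-type and 0.859, 1.02 and 0.856 in the mutant libraries. All mutant libraries were close to 0 (log2 fold change -5.00 ± 0.23, adjusted p = 9.81e-26). *H19*, a maternally expressed long noncoding RNA, had 6.66, 8.14 and 10.3 against 0.215, 0.204 and 0.642 CPM (log2 fold change -4.48 ± 0.42, adjusted p = 1.93e-13). *Igf2*, its paternally expressed neighbour, was not called, at 10.5, 6.78 and 4.93 against 9.66, 8.35 and 8.56 CPM (log2 fold change 0.27 ± 0.21, adjusted p = 0.316). *Plagl1*, a paternally expressed zinc finger gene, had 16, 10 and 12 counts in the wild-type and none in the mutant libraries. Against a floor of 3 counts over the mutant group it was at least 13.3-fold lower.

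Elsewhere imprinted loci differed by less. The noncoding RNAs of the *Dlk1* to *Dio3* domain on chromosome 12, expressed from the maternal allele, were higher together: *Meg3* by 0.69 ± 0.11, *Rian* by 0.69 ± 0.04 and *Mirg* by 0.64 ± 0.14. *Rian* had 315, 345 and 332 CPM in the wild-type and 539.5, 526 and 535 in the mutant libraries, with no overlap. *Gnas*, which encodes the stimulatory G protein subunit among other transcripts, had 253, 287 and 267 against 508, 499.9 and 512 CPM (log2 fold change 0.91 ± 0.05, adjusted p = 4.29e-24). *Mest*, a paternally expressed hydrolase-like gene, had 210.3, 204 and 198 against 115, 128 and 130.0 CPM (log2 fold change -0.71 ± 0.06, adjusted p = 2.88e-16). Its line difference was larger with doxycycline, at -1.54.

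Contractile and cytoskeletal genes were higher in the mutant line. Of 31 autosomal smooth muscle and SRF target genes tested, 24 were higher and 2 lower with a median of 0.67, and outside the 3 shifted chromosomes 21 of 26 were higher and 2 lower. With doxycycline 23 were higher and 3 lower. *Tagln* (chromosome 9, 45929619 to 45936058, - strand in mm10), the actin-binding protein transgelin, had 13.3, 14.5 and 12.8 CPM in the wild-type and 113, 125 and 135 in the mutant libraries. Every mutant library was far above every wild-type one (log2 fold change 3.20 ± 0.09, adjusted p = 9.49e-35), and *Tagln* had the smallest adjusted p of the genes named here. *Actc1*, the cardiac actin, was near absence in the wild-type line at 0.476, 0.904 and 0.448 CPM and had 12.5, 14.9 and 20.5 in the mutant line (log2 fold change 4.64 ± 0.32, adjusted p = 3.07e-18). *Acta2*, smooth muscle actin, had 4.04, 3.62 and 3.14 against 19.3, 23 and 21.4 CPM (log2 fold change 2.56 ± 0.19, adjusted p = 6.41e-17).

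Other contractile genes were higher too. *Cnn1*, the actin-binding calponin, had 11.4, 12.9 and 12.6 against 47.7, 47.4 and 54.1 CPM (log2 fold change 2.01 ± 0.12, adjusted p = 1.38e-20), and *Myl9*, a myosin regulatory light chain, had 13.1, 14.7 and 12.6 against 38.2, 38.7 and 45.3 CPM (log2 fold change 1.60 ± 0.12, adjusted p = 8.69e-17). These genes are also expressed outside muscle. Late smooth muscle genes were at or near 0: *Myh11*, the smooth muscle myosin, had 4 counts in all wild-type and 5 in all mutant libraries, and *Actg2*, enteric actin, 0 and 1. *Mkl1*, which encodes the SRF cofactor MRTF-A, was not called (-0.08 ± 0.11, adjusted p = 0.585).

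The promoters of members of this set were searched for the CArG box, the 10-base motif that SRF binds. Only exact matches counted: CC, then A or T at each place, then GG. The pattern reads the same on both strands. The search ran from 250 bases before to 50 after the start of each gene, with sequences from RefSeq in build GRCm38.p6. Among 25 members with a promoter sequence, 9 (36.0%) held a match, and among the 21 of them called higher 8 (38.1%) did. The share was 1.52% of 8802 tested autosomal genes with a sequence and 1.63% of all 32851 windows. The list was drawn from known SRF targets, so these shares are no independent evidence. The 250 bases before the start are shown for *Actc1*, *Myl9*, *Cnn2* and *Acta2*. Exact matches are in capitals, and the *Acta2* window held none. Near matches, such as ccctatatgg in *Actc1* and *Acta2*, were neither counted nor marked. The matches begin 47 bases before the start in *Actc1*, 161 in *Myl9* and 56 in *Cnn2*, a calponin that was higher by 1.33 ± 0.07.
Actc1 (chr2:114052876-114053125, - strand): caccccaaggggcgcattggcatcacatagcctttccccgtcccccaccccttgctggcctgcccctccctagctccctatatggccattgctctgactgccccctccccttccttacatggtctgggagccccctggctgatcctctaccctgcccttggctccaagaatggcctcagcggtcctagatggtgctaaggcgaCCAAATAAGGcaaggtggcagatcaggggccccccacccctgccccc
Myl9 (chr2:156775214-156775463, + strand): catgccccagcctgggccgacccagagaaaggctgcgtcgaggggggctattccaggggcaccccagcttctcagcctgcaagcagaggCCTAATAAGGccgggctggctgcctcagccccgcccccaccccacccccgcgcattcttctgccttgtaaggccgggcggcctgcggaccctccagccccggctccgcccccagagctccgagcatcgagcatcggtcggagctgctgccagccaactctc
Cnn2 (chr10:79988350-79988599, + strand): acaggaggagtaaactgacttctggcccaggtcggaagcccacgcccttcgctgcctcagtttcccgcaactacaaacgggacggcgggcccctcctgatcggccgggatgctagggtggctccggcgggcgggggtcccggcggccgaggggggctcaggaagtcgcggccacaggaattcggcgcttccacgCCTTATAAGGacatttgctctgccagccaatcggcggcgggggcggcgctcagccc
Acta2 (chr19:34255374-34255623, - strand): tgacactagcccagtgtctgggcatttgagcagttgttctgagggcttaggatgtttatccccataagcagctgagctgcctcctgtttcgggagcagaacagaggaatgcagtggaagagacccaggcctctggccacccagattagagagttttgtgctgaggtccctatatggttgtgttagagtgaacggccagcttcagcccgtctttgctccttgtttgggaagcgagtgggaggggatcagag

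YAP and TEAD targets were higher as well, at 12 of 18 with 1 lower and a median of 0.55. *Cyr61*, a secreted matricellular protein and standard YAP readout, had 6.18, 6.104 and 3.81 CPM in the wild-type and 28.98, 25.4 and 26.5 in the mutant libraries (log2 fold change 2.33 ± 0.17, adjusted p = 2.93e-17). The groups did not overlap. *Fjx1*, a secreted regulator of growth, was higher by 1.30 ± 0.13. *Ajuba* on chromosome 14 and *Amotl2* encode partners of the Hippo kinases and of YAP, and they were higher by 1.01 ± 0.07 and 0.92 ± 0.08. *Ptpn14*, a phosphatase that holds YAP in the cytoplasm, was higher by 0.77 ± 0.08.

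Neural ectoderm genes were higher in the mutant line at 12 of 19, with 2 lower and a median of 0.59, and outside the 3 shifted chromosomes at 10 of 12 with 1 lower. With doxycycline 10 were higher and 5 lower. *Nes* (chromosome 3, 87971078 to 87980451, + strand in mm10), the intermediate filament protein nestin of neural progenitors and many other early cells, had 49.7, 51.8 and 45.5 CPM in the wild-type and 197, 187 and 180.3 in the mutant libraries. The groups were well apart (log2 fold change 1.94 ± 0.07, adjusted p = 3.65e-31). *Crabp2*, a retinoic acid carrier protein, had 10.9, 12.7 and 9.19 against 31.1, 25.8 and 31.2 CPM (log2 fold change 1.42 ± 0.14, adjusted p = 8.17e-13). *Map2*, a microtubule protein of neurons, was higher by 1.03 ± 0.17, and *Sfrp2*, a secreted WNT antagonist, by 0.89 ± 0.08. *Pax6*, a regulator of the neural plate and eye, was low in both lines at 4.04, 3.84 and 4.03 against 7.299, 6.72 and 5.77 CPM (log2 fold change 0.73 ± 0.24, adjusted p = 0.011), with an adjusted p of 0.0558 in DESeq2. *Ntrk2*, a neurotrophin receptor, was lower, at -0.78 ± 0.21, a call lost without wild-type replicate 3 (adjusted p = 0.0593). *Sox1*, which defines neural ectoderm, had 14 counts in all wild-type and 11 in all mutant libraries, too few to be tested.

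Among intermediate filament and lamin genes 5 of 18 were higher and 5 lower (median -0.04), near the shares of all autosomal genes. Without mutant replicate 2 the higher count was 3, and without mutant replicate 3 the lower count was 3. *Vim*, vimentin of mesenchymal and early cells, had 53.3, 59.2 and 52.7 against 134, 117 and 128 CPM (log2 fold change 1.19 ± 0.07, adjusted p = 5.04e-21), and *Krt8*, a keratin of simple epithelia, was higher by 0.47 ± 0.08. Head organizer and anterior mesendoderm genes were higher at 6 of 14 and lower at 1 (median 0.29), the lower one being *Lhx1* itself. With doxycycline 5 were higher and 7 lower, with a median of 0.02. *Fst*, which encodes the activin antagonist follistatin, had 10.2, 9.27 and 6.72 against 20.8, 24.02 and 21.6 CPM (log2 fold change 1.34 ± 0.16, adjusted p = 4.50e-10). *Shisa2*, a WNT and FGF antagonist on chromosome 14, was higher by 1.01 ± 0.20. *Eomes*, a T-box factor of streak and endoderm, had 8.56, 7.69 and 11.9 against 17.6, 17.3 and 20.3 CPM (log2 fold change 0.97 ± 0.17, adjusted p = 3.31e-06). With doxycycline it was lower in the mutant line, at -0.61. *Gsc* and *T*, which mark the organizer and the streak, had 4 and 7 counts over the wild-type libraries and 8 and 24 over the mutant ones.

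Markers of other cell types differed in part. Streak and mesoderm genes, 7 of them tested, were higher at 2 (1 without wild-type replicate 3) and lower at 1, which was *Lhx1* itself, and their summed level was 25.9 to 30.1 CPM in the wild-type and 36.5 to 43.0 CPM in the mutant libraries. A large part of the difference between these sums came from *Eomes*, given above, which was 1 of the 2 higher members. *Mixl1* and *Sox17*, which define the streak and the endoderm, had 9 and 4 counts over the wild-type libraries and 7 and 6 over the mutant ones. Definitive endoderm genes were higher at 3 of 8 and lower at 1. Their sum of 507 to 563 against 1028 to 1045 CPM was made up largely of *Trh*, thyrotropin-releasing hormone, which had 328, 353 and 275 CPM in the wild-type and 740.5, 747 and 719 in the mutant libraries (log2 fold change 1.21 ± 0.06, adjusted p = 1.34e-12). Extraembryonic endoderm genes were higher at 8 of 16 and lower at 1 (median 0.41, sum 656 to 747 against 968 to 1049.8 CPM). *Apoe*, an apolipoprotein, was higher by 0.88 ± 0.05, and *Sparc*, a matrix protein on chromosome 11, by 0.62 ± 0.06.

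Fibroblast genes, which would report feeder cells, were higher at 4 of 14 and lower at 2 (median -0.19, or 0.05 without wild-type replicate 3). Their sums were 399.6 to 495 CPM in the wild-type and 274 to 326 CPM in the mutant libraries. These sums were made up largely of *Fn1*, given below, and so say little of the other members. *Thbs1*, the matricellular protein thrombospondin, was higher at 6.42, 6.104 and 4.48 against 23.4, 28.9 and 24.2 CPM (log2 fold change 2.17 ± 0.18, adjusted p = 6.57e-15), as were *Twist1*, a mesenchymal bHLH factor (1.75 ± 0.30), and *Timp3*, a protease inhibitor (0.89 ± 0.14). *Fn1*, fibronectin, was lower at 433, 349 and 423 against 206, 215 and 170.0 CPM (log2 fold change -1.03 ± 0.12, adjusted p = 1.03e-04). Of 9 blood and endothelial genes 2 were higher and 2 lower (median 0.23, or 0.10 without wild-type replicate 3), with sums of 92.1 to 95.1 against 78.3 to 99.5 CPM. *Flt1*, a VEGF receptor, and *Etv2*, an ETS factor of blood and vessel progenitors, were higher by 1.81 ± 0.27 and 1.65 ± 0.25, and *Tek*, the angiopoietin receptor on chromosome 4, was lower, at -0.77 ± 0.18.

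Trophoblast genes were higher at 2 of 9 and lower at 2, with sums of 367 to 419 CPM in the wild-type and 362 to 404 CPM in the mutant libraries. Genes of the 2-cell-like state were higher at 3 of 9 (1 without wild-type replicate 3 or mutant replicate 3) and lower at 1, with sums of 344 to 382 against 357 to 370.3 CPM. *Zscan4f* and *Zscan4c* were called higher (0.81 ± 0.27 and 0.61 ± 0.26), though they are near-identical copies that may share reads. The *Zscan4c* call was lost in 11 of 17 alternative settings, among them those without wild-type replicate 1, wild-type replicate 3 or mutant replicate 3 (adjusted p = 0.0607, 0.208 and 0.328). The *Zscan4f* call was lost without wild-type replicate 3 or mutant replicate 3 (0.101 and 0.139) and in DESeq2 (0.0667). The part of these cell types in the differences above was not tested.

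WNT pathway genes were higher at 18 of 35 and lower at 5, with a median of 0.28. *Wls*, which carries WNT proteins to the cell surface, had 3.81, 3.62 and 4.48 CPM in the wild-type and 15.9, 16.1 and 17.97 in the mutant libraries (log2 fold change 2.06 ± 0.19, adjusted p = 1.74e-13). *Notum*, a secreted enzyme that inactivates WNT and is itself a WNT target, had 6.898, 6.78 and 9.41 against 2.36, 1.22 and 2.35 CPM (log2 fold change -1.96 ± 0.28, adjusted p = 6.40e-08) and lies on chromosome 11. In both genes the groups stood apart. *Fzd1*, a WNT receptor, was higher by 1.27 ± 0.28, and *Wnt8a*, a ligand of the early streak, was lower, at -0.98 ± 0.30, a call lost without wild-type replicate 2 (adjusted p = 0.0511).

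FGF and ERK pathway genes were higher at 14 of 31 and lower at 6 (median 0.26, or 0.42 without wild-type replicate 3). With doxycycline 11 were higher and 7 lower, with a median of 0.05. Besides *Fgf5*, *Fgf4* and *Etv4* above, *Jun*, an AP-1 subunit, had 9.28, 8.59 and 10.3 against 22.1, 20.4 and 22.03 CPM (log2 fold change 1.19 ± 0.15, adjusted p = 3.77e-09), and *Il17rd*, the FGF antagonist Sef on chromosome 14, was higher by 1.04 ± 0.07. NODAL and activin genes were higher at 10 of 20 and lower at 2 (median 0.14), with 6 higher without mutant replicate 1. The NODAL antagonists and targets *Lefty1* and *Lefty2* were not called (-0.10 ± 0.08 and -0.13 ± 0.07, adjusted p = 0.298 and 0.139). *Pmepa1*, a negative regulator of SMAD signalling, was higher by 0.86 ± 0.22, and *Pcsk6*, a proprotein convertase that cleaves NODAL, was lower, at -0.67 ± 0.16.

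BMP pathway genes were higher at 6 of 18 and lower at none in edgeR (2 at an unadjusted p under 0.05, and 0 in DESeq2 and limma-voom). *Id3*, a direct BMP target that blocks bHLH factors, had 18.3, 13.3 and 17.5 CPM in the wild-type and 37.8, 43.96 and 45.1 in the mutant libraries (log2 fold change 1.37 ± 0.12, adjusted p = 7.03e-14). With doxycycline the lines did not differ detectably there (-0.11, adjusted p = 0.396). *Bmpr1b*, a type I BMP receptor, was higher by 0.91 ± 0.28, a call lost without wild-type replicate 3 (adjusted p = 0.0657). Notch genes were higher at 6 of 19 and lower at 5, near the shares of all autosomal genes. The receptor *Notch1* and the ligand *Dll1* were lower (-0.90 ± 0.12 and -1.47 ± 0.19), while the effectors *Hes1* and *Hey1*, which also answer to other pathways, were higher (1.01 ± 0.15 and 1.09 ± 0.23). *Dll1* had 19.5, 12.2 and 17.5 against 5.797, 5.903 and 5.99 CPM.

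LIF and JAK-STAT genes were higher at 5 of 23 and lower at 5, near the shares of all autosomal genes. Without wild-type replicate 3 they were higher at 4 and lower at 3, with a median of -0.04 in place of 0.03, and without mutant replicate 2 they were higher at 3. The called members included *Socs2* and *Socs5*, cytokine feedback inhibitors, higher by 0.56 ± 0.07 and 0.84 ± 0.17 and *Jak3*, a kinase gene on chromosome 8, lower at -0.69 ± 0.22, a call lost without wild-type replicate 3 (adjusted p = 0.079). Retinoid handling genes were higher at 2 of 12 and lower at 3. *Crabp1* was lower, at -1.01 ± 0.20, opposite to its relative *Crabp2*. The 7 tested LHX1 cofactor and LIM protein genes included 3 higher and 1 lower.

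Cadherins and catenins, which hold cells together, were higher at 11 of 24 and lower at 2 (median 0.35). With doxycycline they were higher at 12 and lower at 7, with a median of 0.12. *Cdh1*, E-cadherin, on chromosome 8, was not called (-0.04 ± 0.04, adjusted p = 0.499). *Celsr1* and *Celsr3*, atypical cadherins of planar cell polarity, were higher by 1.46 ± 0.15 and 1.27 ± 0.13. Eph receptors and ephrins, which signal between touching cells, were higher at 8 of 16 and lower at 2 (median 0.41), and with doxycycline at 7 and 1 (median 0.36). *Ephb1* had 2.14, 0.904 and 1.79 CPM in the wild-type and 6.01, 5.496 and 6.42 in the mutant libraries (log2 fold change 1.88 ± 0.31, adjusted p = 1.57e-06), and *Epha7* and the ligand *Efna5* were higher by 1.46 ± 0.21 and 1.45 ± 0.19.

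Semaphorin, plexin, slit and robo genes were higher at 11 of 30 and lower at 5 (median 0.07, or 0.27 without wild-type replicate 3), and the lower count was 3 without mutant replicate 1. With doxycycline 9 were higher and 9 lower, with a median of -0.19. *Sema3c*, a secreted guidance cue, had 4.28, 3.84 and 4.71 against 13.95, 13.8 and 13.3 CPM (log2 fold change 1.67 ± 0.20, adjusted p = 3.76e-10). *Sema6a*, a membrane semaphorin, was higher by 0.80 ± 0.07, and *Nrp2*, a semaphorin co-receptor, was lower, at -0.74 ± 0.13. Tight junction and epithelial genes were higher at 13 of 27 and lower at 6 (median 0.19), and with doxycycline at 12 and 6 (median 0.08). *Cldn3*, a barrier-forming claudin, was higher by 1.31 ± 0.26. Glypicans and syndecans, the heparan sulphate proteins of the cell surface, were higher at 7 of 12 and lower at 2, and with doxycycline at 6 and 1, with *Sdc3* and *Sdc2* at 1.49 ± 0.23 and 1.19 ± 0.16 without doxycycline.

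Basement membrane and matrix genes were higher at 14 of 31 and lower at 4 (median 0.17, or 0.26 without wild-type replicate 3), and with doxycycline at 12 and 8 (median 0.10). *Lama3*, which encodes a laminin chain, had 5.23, 4.296 and 5.604 against 0.644, 2.04 and 1.92 CPM (log2 fold change -1.69 ± 0.34, adjusted p = 4.98e-05), with no overlap. *Mmp14*, a membrane metalloproteinase on chromosome 14, was higher by 1.24 ± 0.12. Integrin and focal adhesion genes were higher at 13 of 29 and lower at 5 (median 0.33), and with doxycycline at 10 and 9 (median 0.03). *Itgb5*, a vitronectin receptor subunit, had 27.4, 27.4 and 26.9 against 66.6, 67.8 and 65.7 CPM (log2 fold change 1.29 ± 0.09, adjusted p = 1.57e-18). *Anxa3*, an annexin, was higher by 1.70 ± 0.25, and *S100a10*, an annexin partner, was lower, at -1.27 ± 0.10.

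Interferon response and antigen processing genes that could be tested were mostly lower in the mutant line. Of 31 tested, 18 were lower and 2 higher with a median of -0.53, and outside the 3 shifted chromosomes 12 of 23 were lower and 1 higher. With doxycycline 13 were lower and 3 higher. *Ifi35*, an interferon-induced gene on chromosome 11, had 10.7, 8.37 and 8.97 CPM in the wild-type and 2.58, 2.04 and 1.28 in the mutant libraries (log2 fold change -2.23 ± 0.27, adjusted p = 8.48e-10). *H2-T23*, a non-classical MHC class I gene, had 43.5, 38.9 and 38.1 against 13.1, 9.97 and 12.6 CPM (log2 fold change -1.76 ± 0.15, adjusted p = 6.67e-13). *Psmb10*, an immunoproteasome subunit on chromosome 8, had 71.8, 83.7 and 78.9 against 31.99, 30.3 and 30.6 CPM (log2 fold change -1.34 ± 0.09, adjusted p = 7.43e-19). No libraries overlapped in these genes. *Xaf1*, an interferon-induced apoptosis gene on chromosome 11, and *Gbp3*, a guanylate-binding protein, were lower, at -1.91 ± 0.35 and -1.63 ± 0.30. *Irf9*, a DNA-binding subunit of the interferon-activated complex, lies on chromosome 14 and was higher by 0.70 ± 0.24, a call lost without wild-type replicate 3 (adjusted p = 0.061) and in DESeq2 (0.0752). Without wild-type replicate 3 the list had 15 lower, against 20.5% of all autosomal genes in that fit. Other members were too scarce to be tested and went both ways. *Irf7*, *Ifit1* and *Ifit3* had 2, 5 and 6 counts over the wild-type and 7, 10 and 13 over the mutant libraries. *Isg15*, *Mx1* and *Rsad2* had 4, 1 and 24 counts against 1, 0 and 9.

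The libraries of the wild-type line were not alike in hypoxia genes, and the counts of that list changed without wild-type replicate 3. *Bnip3*, a mitophagy gene induced at low oxygen, had 58.5, 63.3 and 229 CPM in wild-type replicates 1, 2 and 3 and 137, 109 and 148 in the mutant libraries. Wild-type replicate 3 was above all mutant libraries and the other two below them, and the gene was not called (log2 fold change 0.16 ± 0.52, adjusted p = 0.838). With all libraries 5 of 23 hypoxia targets were higher and 2 lower in the mutant line (median 0.27), and without wild-type replicate 3 they were 13 and 1 (median 0.62). Without wild-type replicate 1, or without replicate 2, 3 were higher. The summed level of the list was 1834 to 3152 CPM in the wild-type and 3102 to 3431 CPM in the mutant libraries. *Epas1*, the oxygen-regulated factor HIF2A, was lower, at 28.5, 24.9 and 19.7 against 10.9, 6.11 and 8.34 CPM (log2 fold change -1.53 ± 0.17, adjusted p = 4.01e-11).

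Glycolytic genes were higher in the mutant line at 11 of 23 and lower at 1, with a median of 0.38, and without wild-type replicate 3 at 14 and 1. *Slc2a3*, a high-affinity glucose transporter, had 234, 220.2 and 465 CPM in the wild-type and 683, 614 and 629.7 in the mutant libraries (log2 fold change 1.06 ± 0.27, adjusted p = 0.0122). Replicate 3 was the highest wild-type library, yet under the mutant ones. With the 6 untreated libraries alone the adjusted p was 0.0683. *Ldha*, lactate dehydrogenase, had 1315, 1351 and 1753 against 2524, 2495 and 2679.9 CPM (log2 fold change 0.80 ± 0.10, adjusted p = 2.30e-04). *Pfkl*, a phosphofructokinase subunit, and *Tpi1*, triosephosphate isomerase, were higher by 0.98 ± 0.13 and 0.81 ± 0.16. *Gapdh* was not called (0.06 ± 0.04, adjusted p = 0.217).

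Nuclear-encoded subunits of oxidative phosphorylation were lower at 37 of 75 and higher at 1, by small amounts (median -0.16). *Cox4i1* of cytochrome oxidase on chromosome 8 and *Uqcrq* of complex III on chromosome 11 differed by -0.70 ± 0.05 and -0.71 ± 0.08, and *Ndufv3* of complex I was the member called higher (0.54 ± 0.10). Outside the 3 shifted chromosomes 31 of 68 were lower. With doxycycline 23 were lower and 5 higher, with a median of -0.02. Cytosolic ribosomal protein genes were lower at 52 of 74 and higher at none in edgeR (0 at an unadjusted p under 0.05, and 0 in DESeq2 and limma-voom), also with a median of -0.16. With doxycycline the median was -0.06 and 23 were called lower and 2 higher. *Rpl39l*, a testis-enriched paralogue, had the largest difference among those named by the rule, at -1.14 ± 0.21.

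ATF4 targets with serine and folate enzymes were lower at 22 of 40 and higher at none in edgeR (1 at an unadjusted p under 0.05, 0 in DESeq2, 2 in limma-voom and 3 without wild-type replicate 3), with a median of -0.19. ATF4 drives the amino acid stress response. *Mthfd2*, a mitochondrial folate enzyme, had 125, 111 and 117 CPM in the wild-type and 42.7, 44.98 and 46.6 in the mutant libraries (log2 fold change -1.39 ± 0.07, adjusted p = 8.24e-23). *Slc7a5*, an amino acid transporter on chromosome 8, had 289, 307 and 297 against 159.9, 157 and 173 CPM (log2 fold change -0.87 ± 0.05, adjusted p = 3.33e-21), and *Chac1*, a glutathione-degrading enzyme, was lower, at -1.19 ± 0.24. Cholesterol synthesis genes were higher at 10 of 29 and lower at 7, without wild-type replicate 3 at 5 and 6, and without mutant replicate 2 the higher count was 6.

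Genes of the NRF2, glutathione and metallothionein group, which answer oxidative stress, were lower at 15 of 28 and higher at 2, and without wild-type replicate 3 lower at 15 and higher at 5. *Gpx2*, a selenium-dependent glutathione peroxidase on chromosome 12, had 29.97, 26.5 and 25.1 CPM in the wild-type and 0.859, 1.63 and 1.92 in the mutant libraries. It was 18.1-fold lower (log2 fold change -4.18 ± 0.22, adjusted p = 1.39e-22). *Nqo1*, *Hmox1* and *Gsr*, which encode a quinone reductase, heme oxygenase and glutathione reductase, lie on chromosome 8 and were lower, at -1.56 ± 0.13, -1.22 ± 0.07 and -0.92 ± 0.06. *Gstm5*, a glutathione transferase on chromosome 3, was lower, at -1.22 ± 0.15. Heat shock and unfolded protein genes were higher at 8 of 29 and lower at 7, near the shares of all autosomal genes, with *Hspb8*, a small heat shock protein, lower at -1.81 ± 0.21 and *Hspa5*, the endoplasmic reticulum chaperone BiP, higher by 0.59 ± 0.05.

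G1 cyclin, CDK and inhibitor genes were lower at 12 of 23 and higher at 6 (median -0.17). With doxycycline 6 were lower and 7 higher, with a median of -0.14. *Cdkn2a*, which encodes the cell cycle inhibitors p16 and p19ARF, had 5.95, 9.27 and 8.97 CPM in the wild-type and 1.72, 0.407 and 2.14 in the mutant libraries (log2 fold change -2.50 ± 0.31, adjusted p = 1.71e-09). It lies in the low stretch of chromosome 4. *Ccne2*, a cyclin of S phase entry, was lower, at -0.84 ± 0.12, and *Ccnd2*, a D-type cyclin, was higher by 0.66 ± 0.18. p53 targets were higher at 9 of 23 and lower at 4, without wild-type replicate 3 at 6 and 6, and without wild-type replicate 1 the lower count was 2. BCL2 family and caspase genes were higher at 7 of 25 and lower at 6, near the shares of all autosomal genes, and without mutant replicate 3 the higher count was 4. *Bcl2*, the founding antiapoptotic member, had 1.19, 0.678 and 1.57 against 5.797, 4.48 and 5.56 CPM (log2 fold change 2.17 ± 0.35, adjusted p = 9.42e-07), and *Casp8*, the initiator caspase of death receptors, was lower, at -0.85 ± 0.27.

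The naming rule for large differences also gave genes of other kinds. *Nlrp4f*, an NLR family gene of oocytes on chromosome 13, had 16.4, 14.9 and 13 CPM in the wild-type and 0.644, 0.611 and 0.214 in the mutant libraries (log2 fold change -4.83 ± 0.32, adjusted p = 7.72e-19). *Calcoco2*, a selective autophagy receptor on chromosome 11, had 25.5, 24.9 and 13.4 against 1.72, 2.85 and 0.642 CPM (log2 fold change -3.57 ± 0.36, adjusted p = 8.46e-07). Neither showed an overlap. *Myh3*, embryonic myosin, and *Lgals9*, a galectin, both on chromosome 11, were lower, at -2.96 ± 0.31 and -2.64 ± 0.35. *Foxn4*, a forkhead gene, *Acer2*, an alkaline ceramidase on chromosome 4, and *Tex14*, a protein of germ cell bridges on chromosome 11, were lower, at -2.62 ± 0.32, -2.41 ± 0.25 and -2.32 ± 0.26. *Mlkl*, the effector of necroptosis on chromosome 8, was lower, at -2.47 ± 0.38. *Ttn*, the giant sarcomere protein titin, was lower, at -2.62 ± 0.88 (adjusted p = 0.0386), but its wild-type libraries ranged widely at 5.71, 3.39 and 18.4 CPM, and the call was lost in 6 of 17 alternative settings, among them those without mutant replicate 1, 2 or 3 (0.0865, 0.0973 and 0.0962).

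On the higher side, *Samd4*, an RNA-binding translational repressor on chromosome 14, had 0.714, 0.678 and 0.897 CPM in the wild-type and 11.4, 13.4 and 10.5 in the mutant libraries (log2 fold change 3.90 ± 0.33, adjusted p = 9.35e-15). *Lpar6*, a lysophosphatidic acid receptor that lies within *Rb1* on chromosome 14 and may share its reads, had 3.09, 2.26 and 2.69 against 22.1, 22.4 and 25.2 CPM (log2 fold change 3.11 ± 0.20, adjusted p = 2.55e-19). Both differences exceeded the 0.49 median of the chromosome and its highest bin median of 0.81, and the libraries did not overlap. *Cntfr*, the receptor for ciliary neurotrophic factor, had 10.7, 10.2 and 8.97 against 43.2, 40.1 and 43.6 CPM (log2 fold change 2.09 ± 0.13, adjusted p = 8.01e-20), and *Dpysl3*, a cytoskeletal protein of growing neurites, had 6.66, 8.14 and 9.86 against 39.9, 31.5 and 33.2 CPM (log2 fold change 2.07 ± 0.14, adjusted p = 2.28e-18). *Klhl14*, *Tmem200a*, *Rasl10b* on chromosome 11 and *Pdlim2* on chromosome 14 were higher by 2.38 ± 0.36, 2.09 ± 0.33, 2.23 ± 0.33 and 2.09 ± 0.26. *Fgfbp1*, a secreted carrier of FGF, was higher by 2.13 ± 0.24 without doxycycline and by 0.66 with it.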

How the data were processed

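The authors deposited whole-number counts for 23086 gene symbols in 12 libraries, of which 4753 symbols had no count. Per the labels' protocols, RNA from embryoid bodies went into TruSeq libraries. Per the submitters' processing notes, Trimmomatic 0.33, TopHat2 2.1.1, limma and the mm10 genome were used, without their roles. The sources used here name no counting tool, annotation or strand setting. Overlapping, antisense or near-identical genes may therefore share reads. Sample titles gave the groups. Replicate pairs differed by more than sampling noise (chi-square over its degrees of freedom 1.11 to 2.41, but 5.84 and 6.28 for wild-type doxycycline replicate 2 against its group), and all were kept as separate samples.

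edgeR 4.0.16 (R 4.3.3) was run with TMM scaling, filterByExpr (12322 genes kept) and robust quasi-likelihood tests on all 12 libraries with 1 mean per group. Benjamini-Hochberg adjustment ran over all genes tested. The SE is the log2 fold change divided by the root of the F statistic. Positions came from GENCODE M21 by symbol, then RefSeq. In simulated counts for this comparison (12181 genes, 50 of them changed at each fold), 5.41% of calls were false. Recovery was 24% at 1.25-fold, 64% at 1.5-fold, 94% at 2-fold and 98% at 4-fold. Far fewer genes were changed there than were called in the data, which made the cutoff stricter. These shares therefore do not carry over directly to the comparison. Total counts of about this depth leave small changes in rare transcripts undetected.

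Alternatives were RLE and upper-quartile scaling, DESeq2 1.42.0, limma-voom (limma 3.58.1), other filters, autosomal library sizes, the untreated libraries alone, a replicate block and each untreated library left out. Leaving out chromosomes 8, 11 and 14, or wild-type doxycycline replicate 2, was added after the data were seen. The genes and lists were chosen with earlier results of these data known. Named genes are *Lhx1*, *Hprt*, 4 markers, the 15 autosomal called genes with the largest difference each way reaching 5 CPM in the higher line without overlap (predicted genes, small RNAs, pseudogenes and symbols turned into dates left out), and from each of 46 lists up to 5 called members with the largest difference and at least 5 CPM and up to 2 uncalled members with the highest CPM. Only part of the genes this rule gives are printed. *Klf4*, *Esrrb*, *Tfcp2l1*, *Dppa4*, *Dppa5a*, *Pou5f1*, *Sox2*, *Tcf15*, *Dnmt1*, *Uhrf1*, *Plagl1*, *Igf2*, *Meg3*, *Mirg*, *Pax6*, *Irf9*, *Bnip3* and *Cnn2*, and the untested *Myh11*, *Actg2*, *Sox1*, *Gsc*, *Mixl1*, *Sox17*, *T*, *Irf7*, *Ifit1*, *Ifit3*, *Isg15*, *Mx1* and *Rsad2*, were chosen after their values were seen.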

Additional observations from a re-analysis of the deposited data

Results flagged for a closer look

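For 26 genes named above, the difference between the lines was itself different with doxycycline, by edgeR's test of the line effect with doxycycline minus the line effect without it (adjusted p under 0.05 over all genes tested). Across autosomal genes that test called 2.43%. These values mix the baseline state of the lines with the response to each form of *Lhx1*, and the 2 cannot be told apart in the doxycycline libraries. *Lhx1* itself, the induced gene, gave 1.97.

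At genes higher in the untreated mutant line the difference was smaller or turned around with doxycycline at *Gbx2* (-1.62), *Fgf5* (-0.91), *Pax6* (-1.36), *Shisa2* (-1.40), *Eomes* (-1.58), *Flt1* (-1.31), *Il17rd* (-0.56), *Id3* (-1.48), *Socs2* (-1.05), *Ephb1* (-2.02), *Epha7* (-1.21), *Celsr1* (-0.88), *Ccnd2* (-2.35) and *Fgfbp1* (-1.47). It was larger with doxycycline at *Pou5f1* (0.26), *Sall2* (0.57), *Rian* (0.38) and *Sema6a* (0.65). Among genes lower in the untreated mutant line, the line effect moved up at *Fgf4* (0.36), *Dppa5a* (0.24), *Ntrk2* (1.40) and *Psmb10* (0.55), and moved further down at *Mest* (-0.83). *Dnmt3a* (0.61) and *Lefty1* (0.45) were not called between the untreated lines.

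The line effect at *Ccnd2* was 0.66 without doxycycline and -1.69 with it, and at *Ephb1* it was 1.88 and -0.15. At *Zfp42*, *Dnmt3l*, *Tagln* and *Nes* this test made no call (adjusted p = 0.0534, 0.756, 0.986 and 0.761).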

How the results depend on the processing

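No named called gene changed sign in any of the 17 alternative settings that tested it. Of 165 named called genes, 152 kept the call in every setting that gave them an adjusted p. The other 13 are given above, with adjusted p of 0.0501 to 0.328 where the call was lost. Genes of chromosomes 8, 11, 14 and X were not tested where chromosomes 8, 11 and 14 were left out. Genes scarce over the libraries, such as *Ttn*, were not tested under the stricter filter. Counts out of 17 above include such settings. Leaving out each untreated library, or wild-type doxycycline replicate 2 (chosen after seeing the data), gave 2334 to 2708 genes higher and 2340 to 2745 lower in the mutant line, 408 to 495 at least 2-fold higher and 301 to 338 at least 2-fold lower, 3467 to 3629 calls shared in direction with doxycycline, and 517 to 587 called list members (579 with all libraries). Chromosome medians then ranged from -0.39 to -0.38 for chromosome 8, from -0.19 to -0.18 for chromosome 11 and from 0.47 to 0.52 for chromosome 14, the last without wild-type replicate 3. With no filter the chromosome 14 median was 0.40. The stricter filter, which tests fewer genes, left 249 at least 2-fold higher and 161 lower. DESeq2 called 1964 higher and 2077 lower. The sign changed at genes that were not called. *Nanog* was at -0.0011 under upper-quartile scaling, -0.0012 in DESeq2, -0.0248 without genes of chromosomes 8, 11 and 14, and from -0.12 (without wild-type replicate 3) to 0.11 with a library left out. *Dnmt3b* was at -0.0237 without those chromosomes and from -0.0357 (without wild-type replicate 3) to 0.0282 with a library left out. In the same way *Dnmt3a* ranged from -0.0337 to 0.0078, being above 0 without wild-type replicate 1, mutant replicate 1 or mutant replicate 2, and *Bnip3* from -0.16 to 1.10, being below 0 without wild-type replicate 1 or 2. Leaving out those chromosomes, chosen after seeing the data, gave 2020 higher and 2064 lower.

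The replicate numbers did not pair the libraries, since same-numbered untreated libraries of the lines had correlations of -0.0024, 0.0216 and 0.0072 in their deviations from group means. With the replicate number as a block, 2629 genes were higher and 2619 lower, 430 and 317 of them at least 2-fold, 3720 calls were shared with doxycycline, 562 list members were called, and chromosome medians were -0.39, -0.19 and 0.49. *Zscan4c* and *Ttn* lost their calls under the block (adjusted p = 0.0547 and 0.0622). In simulated counts with 50 genes changed at each fold, 24% of 1.25-fold changes were recovered. The Benjamini-Hochberg cutoff was stricter there than in the data, where 45.3% of autosomal genes were called. That share therefore does not measure recovery in the data, and a gene not called may still differ by a small amount.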
